A study of Rattus norvegicus with 30 samples.

Results

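The 7 genes described here carry, convert and read thyroid hormone. They are Thra and Thrb, which encode the 2 thyroid hormone receptors, Slco1c1, which encodes the transporter OATP1C1, Dio2 and Dio3, which encode deiodinases, and Klf9 and Hr, which thyroid hormone induces in brain. They were taken by symbol from a table of 32883 rat genes, and each symbol was found once. Primary cultures of cortical neurons from Sprague Dawley rat embryos (E16) received AAV9 on day 5 in vitro. The AAV9 carried human αSyn 3K (E35K + E46K + E61K) under the CAG promoter, called 3K, or an empty vector with no insert, called EV. Each treatment was sampled for RNA at days 6, 12 and 19 after AAV, with 5 libraries per day (30 libraries). All titles also carry the word PBS, which the labels do not explain. The cultures were made from whole dissociated cortex with the meninges removed, and were fed Neurobasal with B27, a supplement that contains T3. CAG is a ubiquitous promoter, so αSyn 3K was not restricted to neurons by it. Whether the 5 replicates are separate cultures is not given in the sources used here, and p-values measure only the spread between these libraries, which may be technical.

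Thyroid hormone enters brain cells through membrane transporters. The prohormone T4 is turned into the active hormone T3 by DIO2, which in brain is found mainly in astrocytes, and both hormones are inactivated by DIO3, which is found mainly in neurons. T3 binds nuclear receptors that sit on DNA together with RXR and exchange corepressors for coactivators when the hormone is bound. In the developing cortex this pathway is known for its part in neuronal maturation and myelination.

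Promoters of 5 of the 7 genes are given by RefSeq on the build GRCr8, each as 250 bases before and 50 bases after the annotated start. Those of Thra, Thrb and Klf9 are shown, and Slco1c1 and Hr had no entry. Thra lies at chr10:84197891-84198190 on the plus strand and is the first of 2 entries, Thrb at chr15:10461397-10461696 on the minus strand, and Klf9 at chr1:230126396-230126695 on the plus strand. Capitals mark GGGCGG, the letters of a GC box, and CCAAT, the letters of a CCAAT box, on both strands, and some of the marked stretches adjoin or overlap.
Thra: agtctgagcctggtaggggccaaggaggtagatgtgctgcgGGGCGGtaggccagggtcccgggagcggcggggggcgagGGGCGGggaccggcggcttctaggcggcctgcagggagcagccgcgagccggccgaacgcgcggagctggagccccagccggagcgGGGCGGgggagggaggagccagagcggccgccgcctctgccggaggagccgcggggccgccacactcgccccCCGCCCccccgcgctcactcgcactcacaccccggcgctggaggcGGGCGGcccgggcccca
Thrb: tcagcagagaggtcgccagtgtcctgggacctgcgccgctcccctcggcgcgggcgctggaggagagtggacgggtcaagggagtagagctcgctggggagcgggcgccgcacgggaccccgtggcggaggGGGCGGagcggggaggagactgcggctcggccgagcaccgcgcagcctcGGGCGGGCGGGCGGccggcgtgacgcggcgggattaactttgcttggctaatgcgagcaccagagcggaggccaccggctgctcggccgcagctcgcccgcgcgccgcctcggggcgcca
Klf9: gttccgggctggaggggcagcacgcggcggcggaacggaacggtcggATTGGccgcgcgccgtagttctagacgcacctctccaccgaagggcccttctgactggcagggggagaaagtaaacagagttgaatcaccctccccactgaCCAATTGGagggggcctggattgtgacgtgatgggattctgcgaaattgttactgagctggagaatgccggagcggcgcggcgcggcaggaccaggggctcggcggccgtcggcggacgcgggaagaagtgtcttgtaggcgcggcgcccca
The windows of Thra and Thrb were 79.7% and 76.0% G or C and held GGGCGG 5 and 4 times, and neither held CCAAT. The Klf9 window was 65.3% G or C and held CCAAT 3 times and no GGGCGG. Of all 33469 promoter windows of this length, 33.1% held GGGCGG and 37.5% held CCAAT. The half-site of thyroid hormone receptors, AGGTCA on either strand, was in none of the 5 windows and in 16.2% of all windows. Its direct repeat with a spacing of 4 bases (DR4), searched in the same way, was in 0.00598% of all windows and in none of the 5. A match is a description of letters in this window only.

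The values are normalized counts, that is, reads per gene divided by a size factor for each library. Each library held between 4747019 and 7035869 reads over genes. Reads of the αSyn 3K vector gave 3801 to 28883 normalized counts in 3K libraries, against 84.2 to 249.8 in EV libraries. Reads of the empty vector gave 20.1 to 155 in 3K libraries, against 1949 to 3847 in EV libraries. Every library therefore carried more of its own vector, and EV libraries were not free of αSyn 3K reads. A gene was tested if it reached a normalized count of 10 in at least 5 libraries, which held for 12911 genes and for 5 of the 7, with Dio2 and Dio3 left out. Tests were made with limma on log2(normalized count + 1), with adjustment by the Benjamini-Hochberg method over all 12911 genes and a threshold of 0.05. The genes were chosen by family, with normalized counts of 3K against EV already seen, in which Thra and Slco1c1 stood out. Differences between 3K and EV in these 7 genes are therefore given as values with no test, and tests are given for culture age within each treatment.

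**Figure D1:**
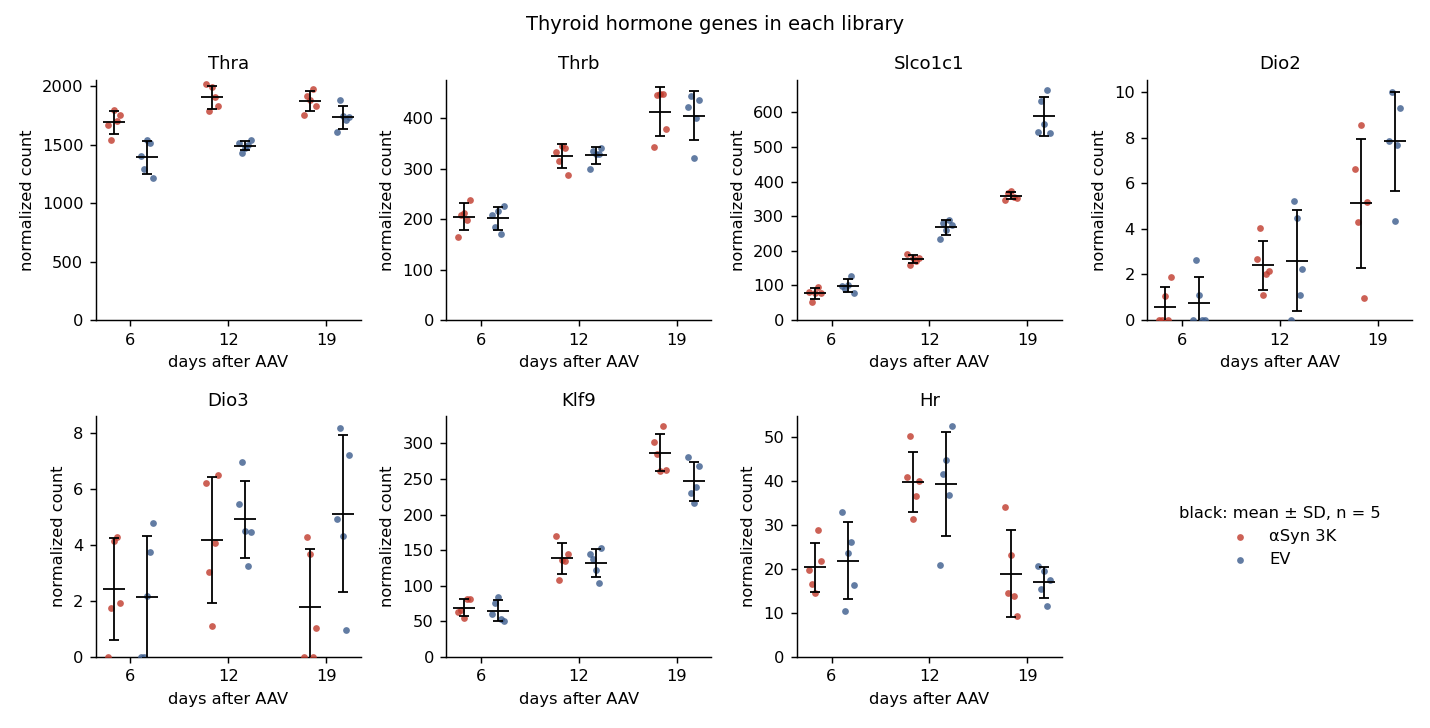
Normalized counts (y axis, linear from 0) of the 7 genes by days after AAV (x axis), 1 point per library, αSyn 3K left of EV, with mean ± SD in black (n = 5). Thra points of 3K sit above those of EV at days 6 and 12, Slco1c1 points of 3K sit below those of EV at days 12 and 19, and the other genes overlap between treatments at every day.

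Thra, which encodes TRα, the more widespread receptor of the developing brain, was higher in 3K than in EV at days 6 and 12. At day 6 the 3K libraries had 1670.3, 1539.7, 1798, 1703 and 1756 normalized counts, against 1403, 1291, 1539, 1518 and 1215 in EV. Every 3K library lay above every EV library, although the lowest of 3K and the highest of EV were nearly equal. At day 12 the 3K libraries had 2016, 1786, 1989.7, 1907 and 1833, against 1516, 1433, 1474, 1499.9 and 1540.4 in EV. The groups were further apart than at day 6, with no overlap. At day 19 the 3K libraries had 1753, 1917, 1882, 1979.7 and 1828, against 1608, 1883, 1743, 1715 and 1734 in EV, and the groups overlapped. The means were 1.22, 1.28 and 1.08 times those of EV at days 6, 12 and 19, and the log2 differences were 0.29, 0.35 and 0.11 (SE 0.05 each). Of all genes, 0.767% at day 6 and 1.05% at day 12 had every 3K library above every EV library, which is given as background only, since Thra was known to stand out here when it was chosen.

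Within each treatment Thra changed less with age than Thrb, Slco1c1 and Klf9. In 3K it passed the test as higher at day 12 than at day 6 (log2 difference 0.17, SE 0.05, adjusted p = 0.01) and at day 19 than at day 6 (0.15, adjusted p = 0.019), and the value for day 19 against day 12 was -0.03 (adjusted p = 0.73). The call at day 19 against day 6 in 3K was lost without 3K day 6 replicate 2 (0.11, adjusted p = 0.079) or 3K day 19 replicate 4 (0.13, adjusted p = 0.057). In EV it passed as higher at day 19 than at day 12 (0.22, adjusted p = 0.0013) and at day 19 than at day 6 (0.32, adjusted p = 4.2e-06), but not at day 12 against day 6 (0.11, adjusted p = 0.11). For day 12 against day 6 it passed without EV day 6 replicate 3 (0.14, adjusted p = 0.033) or replicate 4 (0.14, adjusted p = 0.044). Every EV day 19 library lay above every EV library of days 6 and 12. Of all genes in EV, 24.5% did so against day 6 and 17.2% against day 12. Ordered by mean, the groups ran 3K day 12, 3K day 19, EV day 19, 3K day 6, EV day 12 and EV day 6, and each overlapped with the next.

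Counts per gene do not separate the hormone-binding TRα1 from TRα2, a splice form that does not bind T3. In RefSeq Thra overlaps Nr1d1, a gene on the opposite strand that encodes the circadian repressor REV-ERBα, and the library kits do not mark strand. Reads in the overlap therefore cannot be told apart by strand. Nr1d1 averaged 97.9 ± 14.7 normalized counts in 3K and 93.1 ± 6.09 in EV at day 6, 226 ± 16.5 in 3K and 211 ± 23.2 in EV at day 12, and 359 ± 35.1 in 3K and 362 ± 58.6 in EV at day 19 (SD, n = 5 each). It was called at no day in 3K against EV (log2 differences 0.06, 0.11 and 0.00, adjusted p 0.99, 0.9 and 1). The part of reads from the overlap in the Thra values was not tested. Nr1d1 rose with age in EV (log2 difference 1.93 at day 19 against day 6, adjusted p = 3.4e-17).

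Thrb, which encodes TRβ, the receptor that appears later in brain development, lay at the same level in 3K and EV at each day and roughly doubled between days 6 and 19 in both. At day 6 the 3K libraries had 164, 209, 211, 199 and 238 normalized counts, against 208, 185, 216, 171 and 226 in EV. At day 12 they had 333, 315, 346, 341 and 287, against 298, 334, 328, 329 and 340.3 in EV. At day 19 they had 343, 446, 447, 447 and 379, against 421, 444, 322, 401 and 436 in EV. The treatments overlapped at all 3 days, with log2 differences of 0.02, -0.01 and 0.03 (SE 0.09 each). With age Thrb rose at both steps in both treatments. Between days 6 and 12 the log2 difference was 0.67 in 3K (adjusted p = 6.5e-07) and 0.70 in EV (adjusted p = 2.9e-07). Between days 12 and 19 it was 0.34 in 3K (adjusted p = 0.0034) and 0.30 in EV (adjusted p = 0.0087). Over the whole span the fold change was 2.02 in 3K (adjusted p = 4.7e-11) and 2.00 in EV (adjusted p = 5.4e-11). Every day 19 library was above every day 6 library, as held for 24.3% of all genes in 3K and 24.5% in EV.

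**Figure D2:**
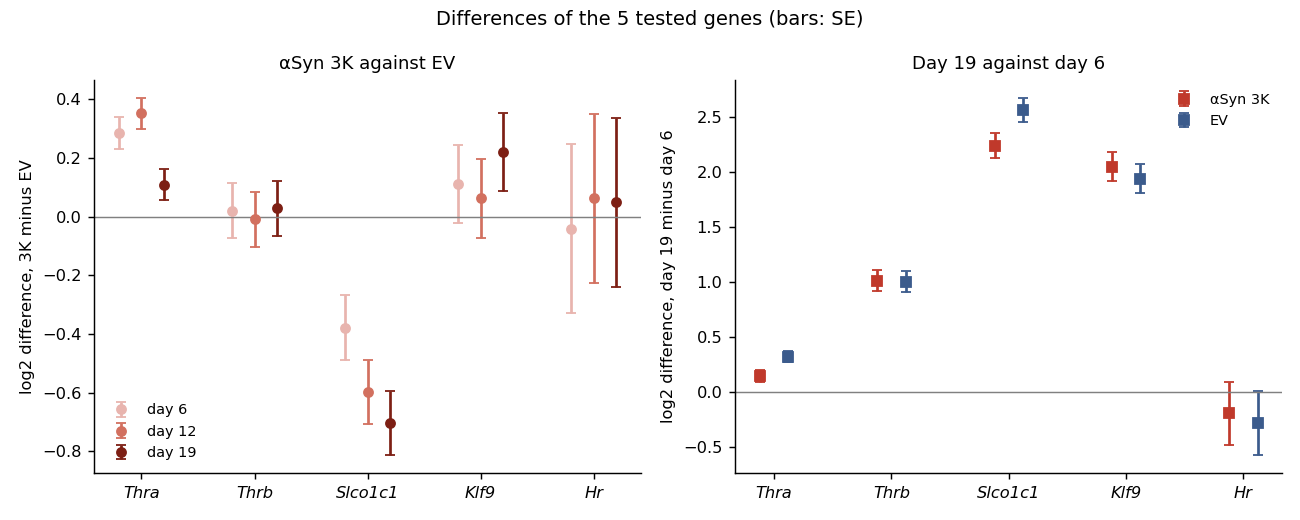
Log2 differences of the 5 tested genes on log2(normalized count + 1), with SE as bars. Left, αSyn 3K minus EV at days 6, 12 and 19, where Thra lies above 0 (0.29, 0.35 and 0.11) and Slco1c1 below 0 (-0.38, -0.60 and -0.70). Right, day 19 minus day 6 in αSyn 3K and in EV, where Slco1c1 (2.24 and 2.56) and Klf9 (2.05 and 1.94) lie highest.

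Slco1c1, whose product OATP1C1 carries T4 and in rodent brain is found in capillary endothelium and astrocytes, was lower in 3K than in EV, and the gap was wider at the later days. At day 6 the 3K libraries had 80.4, 52.4, 79.0, 94.5 and 78.2 normalized counts, against 99.6, 90.6, 103, 127 and 78.7 in EV, and the groups overlapped. At day 12 the 3K libraries had 190.4, 160.01, 179, 172 and 179.7, against 234, 279, 260.5, 290.2 and 274 in EV. At day 19 the 3K libraries had 348, 368, 373, 357 and 354, against 543, 632, 566, 664 and 539 in EV. At both later days every 3K library lay below every EV library. The 5 libraries of 3K at day 19 spanned only 348 to 373, while those of EV spanned 539 to 664. The means in 3K were 0.771, 0.659 and 0.611 times those in EV at days 6, 12 and 19, with log2 differences of -0.38, -0.60 and -0.70 (SE 0.11 each). The difference changed by -0.22 from day 6 to day 12, by -0.11 from day 12 to day 19 and by -0.325 from day 6 to day 19. The SE of each change was 0.16, and the widening was not tested. Of all genes, 1.57% at day 12 and 3.56% at day 19 had every 3K library below every EV library. These shares are again background only, since the lower level in 3K was known when Slco1c1 was chosen.

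With age Slco1c1 rose in both treatments, and over the whole span its log2 difference was the largest of the 5 tested genes, 2.24 in 3K (adjusted p = 7e-18) and 2.56 in EV (adjusted p = 1.7e-19). Day 12 against day 6 gave a log2 difference of 1.21 in 3K (adjusted p = 1.3e-10) and 1.43 in EV (adjusted p = 2.8e-12). Day 19 against day 12 gave 1.03 in 3K (adjusted p = 3.2e-09) and 1.13 in EV (adjusted p = 4.3e-10). Over the whole span the mean at day 19 was 4.68 times that at day 6 in 3K and 5.90 times in EV, and the libraries of successive days did not overlap in either treatment. Of all genes, 15.8% in 3K and 15.1% in EV had every day 12 library above every day 6 library, and 16.7% in 3K and 17.2% in EV had every day 19 library above every day 12 library. The order of the groups was EV day 19, 3K day 19, EV day 12, 3K day 12, EV day 6 and 3K day 6, and of these neighbours only the last pair overlapped.

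The cell types that express Slco1c1 were looked at through their markers. The marker lists were chosen with earlier results of these data known, so their calls in 3K against EV are a description. Of 15 astrocyte markers, 14 were tested. None was called higher in 3K at any day, while 1 (day 6), 2 (day 12) and 6 (day 19) were called lower. Of all genes tested, 0.139%, 0.178% and 3.78% were called higher in 3K at these days, and 0.0852%, 0.256% and 4.08% lower. At day 19 the 6 were Aldoc (log2 difference -0.52, adjusted p = 1.8e-07), Acsbg1 (-0.28, adjusted p = 2.1e-06), Glul (-0.33, adjusted p = 0.00011), S100b (-0.22, adjusted p = 0.013), Fgfr3 (-0.23, adjusted p = 0.036) and Aldh1l1 (-0.35, adjusted p = 0.041). Gfap, the intermediate filament of astrocytes, had a value of 0.62 (adjusted p = 0.063), and Aqp4 and Gja1 had -0.02 and 0.05. The summed astrocyte markers of a library ranged from 17660.0 to 20649 normalized counts in 3K and from 19864 to 22083 in EV at day 6. They ranged from 29825 to 31931 in 3K and from 33785 to 34898 in EV at day 12, and from 54327 to 63162 in 3K and from 62702 to 68359 in EV at day 19. Per 1000 summed astrocyte marker counts, Slco1c1 was 3.96 ± 0.93 in 3K and 4.74 ± 0.80 in EV at day 6, with overlap (SD, n = 5 each). It was 5.70 ± 0.47 in 3K and 7.75 ± 0.64 in EV at day 12, and 6.06 ± 0.40 in 3K and 9.06 ± 1.12 in EV at day 19, with no overlap at either day (SD, n = 5 each). On the log2 scale this ratio differed by -0.27, -0.44 and -0.57 between 3K and EV at days 6, 12 and 19, a scaling chosen after the data were seen. The ratio reuses the Slco1c1 values that were known when the gene was chosen, so its separation is a description and adds no support. No share of all genes was computed for such a ratio. Glul and Slc1a3 weighed most in the sum, with means of 11386 and 8333 normalized counts over the 30 libraries. Gfap, with its value above 0 at day 19, was part of the sum too. The ratio depends on these weights, and ratios to single markers were not computed. Fewer cells of a type and less RNA per cell cannot be told apart in bulk RNA. In separate rat cortical cultures, given AAV at other ages, the study counted fewer astrocytes and fewer neurons under αSyn 3K than under EV. It also reported lower ATP under αSyn 3K at day 19. The part of cell loss in the Slco1c1 values was not tested.

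**Figure D3:**
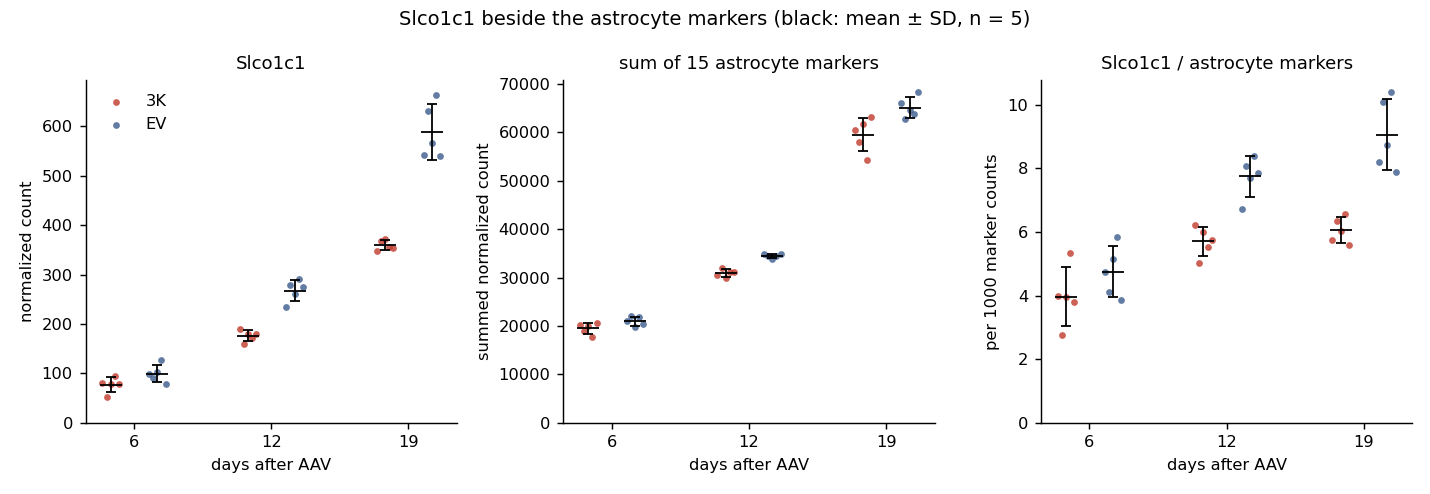
By days after AAV (x axis), 1 point per library with mean ± SD (n = 5), αSyn 3K left of EV: Slco1c1 in normalized counts, the sum of 15 astrocyte markers in normalized counts, and Slco1c1 per 1000 summed marker counts. All y axes start at 0. The ratio at day 19 spans 5.61 to 6.56 in 3K, below 7.89 to 10.4 in EV.

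Of the markers of capillary endothelium, Cldn5 and Cdh5 were at 0 in all 30 libraries, and Flt1 and Vwf did not exceed 7.33 and 4.28 normalized counts. The summed endothelial markers, nearly all from Abcb1a and Mfsd2a, which other cells also express, spanned 161 to 240.7 in 3K and 163 to 212 in EV at day 19. These 2 genes differed in sign there, as Mfsd2a was called lower (log2 difference -0.65, adjusted p = 0.00055) and Abcb1a had 0.39 (adjusted p = 0.13). Neither was called at days 6 or 12. Neuron markers summed to 23541 to 24297 in 3K and to 25345 to 26570 in EV at day 19, with 2 of 8 called lower, Slc17a7 (-0.11, adjusted p = 0.005) and Snap25 (-0.20, adjusted p = 0.033), and none called higher, where 4.08% of all genes were called lower. None of the 8 was called at days 6 or 12. Microglia markers summed to at most 3.36 in any library. The part of cell composition in the values of Thra was not tested.

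Dio2 and Dio3 were at the edge of detection. Dio2, the activating deiodinase, gave 97 reads in all 30 libraries together and was at 0 in 7 of them. Its reads summed to 7 at day 6, 25 at day 12 and 65 at day 19. In EV every day 19 library had more normalized counts of Dio2 than every day 6 library, as held for 24.5% of all genes tested. In 3K these days overlapped through 1 library of day 19 that had 1 read. Whether this change with age differs between the treatments was not tested. At day 19 the 3K libraries had 7, 5, 7, 1 and 5 reads, against 8, 11, 4, 8 and 9 in EV, or 5.12 ± 2.82 normalized counts in 3K and 7.84 ± 2.19 in EV (SD, n = 5 each). The ranges overlapped there and at the earlier days, when the means were 0.590 in 3K and 0.739 in EV (day 6), and 2.40 in 3K and 2.61 in EV (day 12). Dio3, the inactivating deiodinase, gave 103 reads in all and was at 0 in 5 libraries. At day 19 the 3K libraries had 0, 5, 3, 0 and 1 reads, against 5, 9, 4, 1 and 7 in EV, or 1.80 ± 2.04 normalized counts in 3K and 5.13 ± 2.82 in EV (SD, n = 5 each), with overlap. The Dio3 means were 2.42 in 3K and 2.14 in EV at day 6, and 4.18 in 3K and 4.93 in EV at day 12. A count of 0 in a library allows up to 3 reads, which is 2.53 to 3.75 normalized counts depending on the library, and this covers counting error only. Many of the values of both genes are at or near that limit, and neither gene was tested, so no difference is called in either.

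Klf9, a zinc finger transcription factor that T3 induces in neurons and glia, rose steeply with age and overlapped between treatments at every day. At day 6 the 3K libraries had 63.2, 66.4, 55.1, 80.6 and 81.1 normalized counts, against 59.9, 75.8, 84.2, 53.7 and 49.9 in EV. At day 12 they had 169.9, 108, 136, 134 and 144, against 145, 137, 122, 104 and 153 in EV. At day 19 they had 302, 285, 262, 324 and 263, against 281, 229.9, 216, 239 and 268 in EV. The 3 highest libraries of day 19 were from 3K and the 3 lowest from EV, with log2 differences between treatments of 0.11, 0.06 and 0.22 at days 6, 12 and 19 (SE 0.13 each). Day 12 against day 6 gave 0.99 in 3K (adjusted p = 3.6e-07) and 1.04 in EV (adjusted p = 1.4e-07). Day 19 against day 12 gave 1.06 in 3K (adjusted p = 8.8e-08) and 0.90 in EV (adjusted p = 1.5e-06). The mean at day 19 was 4.15 times that at day 6 in 3K and 3.81 times in EV, with no overlap between any days. Of all genes, 15.8% in 3K and 15.1% in EV lay wholly higher at day 12 than at day 6. The shares were 16.7% in 3K and 17.2% in EV for day 19 above day 12, and 24.3% and 24.5% for day 19 above day 6.

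Hr, which encodes the corepressor Hairless, a partner of thyroid hormone receptors that T3 induces in rat brain, was highest at day 12 in both treatments. At day 6 the 3K libraries had 19.9, 16.6, 14.6, 29.0 and 21.9 normalized counts, against 32.9, 10.5, 23.8, 26.2 and 16.3 in EV. At day 12 they had 40.9, 50.3, 31.5, 36.7 and 40.1, against 20.9, 41.7, 44.9, 36.8 and 52.6 in EV. At day 19 they had 34.0, 14.6, 23.2, 13.8 and 9.32, against 20.7, 15.5, 19.5, 11.5 and 17.6 in EV. The treatments overlapped at every day, and the SE of their log2 differences, 0.29, was larger than the differences (-0.04, 0.06 and 0.05). Hr rose between days 6 and 12 by a log2 difference of 0.96 in 3K (adjusted p = 0.0078) and 0.85 in EV (adjusted p = 0.016). It fell between days 12 and 19 by 1.15 on the log2 scale in 3K (adjusted p = 0.0014) and by 1.14 in EV (adjusted p = 0.0016). Days 19 and 6 did not differ by the test (-0.19 in 3K, adjusted p = 0.58, and -0.28 in EV, adjusted p = 0.4). The rise in EV was lost without EV day 6 replicate 2 (0.63, adjusted p = 0.077) or EV day 12 replicate 5 (0.74, adjusted p = 0.053). Klf9 and Hr, although both are induced by T3 in rat brain, thus differed in course after day 12, when Klf9 rose and Hr fell in both treatments.

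Counted over the 5 tested genes, 5 in 3K and 4 in EV rose between days 6 and 12, where 22.3% of all genes tested in 3K and 23.3% in EV rose. Between days 12 and 19, 3 rose and 1 fell in 3K, where 23.3% of all genes rose and 22.5% fell, and 4 rose and 1 fell in EV, where 23.6% rose and 21.7% fell. At day 19 against day 6, 4 had risen in 3K and the same 4 in EV (Thra, Thrb, Slco1c1 and Klf9), where 32.2% of all genes in 3K and 32.9% in EV had. Of all genes, 24.3% in 3K and 24.5% in EV had every day 19 library above every day 6 library. So did Thrb, Slco1c1 and Klf9 in both treatments, and Thra in EV. The comparisons between days of a treatment share libraries, and changes with age are frequent in these cultures.

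The genes most alike to each of the 5 over the 30 libraries were looked up by Pearson's r of log2 values among tested genes with a mean normalized count of at least 50, as a description. The libraries share day and treatment, which enter every r. Slco1c1 was closest to Gpi, a glycolytic enzyme (r = 0.978), and to the astrocyte genes Acsbg1 and Aldoc (r = 0.976 each). Genes close to Klf9 included Dusp3 (r = 0.967) and Dbp, a circadian transcription factor (r = 0.966). Thrb was closest to St3gal5, the GM3 synthase (r = 0.959), Camk2d (r = 0.957) and Adam11 (r = 0.956). Thra was closest to Sh2d3c (r = 0.826), Omg (r = 0.794) and Ncdn (r = 0.781), and Hr to Prkcq (r = 0.838), Galnt2 (r = 0.813) and Lrrc8d (r = 0.795). The r of Thra and Hr were lower than those of the other 3.

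The rest of the pathway was read from 53 listed symbols, of which 49 were in the table and 42 were tested. These lists were drawn up with earlier results of these data known. Their calls and adjusted p in 3K against EV therefore describe these data and are no independent test. In 3K against EV, 0 were called higher and 2 lower at day 6, 0 higher and 2 lower at day 12, and 2 higher and 3 lower at day 19. Of all genes, 0.225%, 0.434% and 7.86% were called in either direction at these days, and the median log2 difference over the 42 genes was 0.06, 0.01 and 0.00, against 0.00 over all genes at each day. None of 3 RXR genes, 6 genes of the corepressor complex or 7 coactivators was called at any day.

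**Figure D4:**
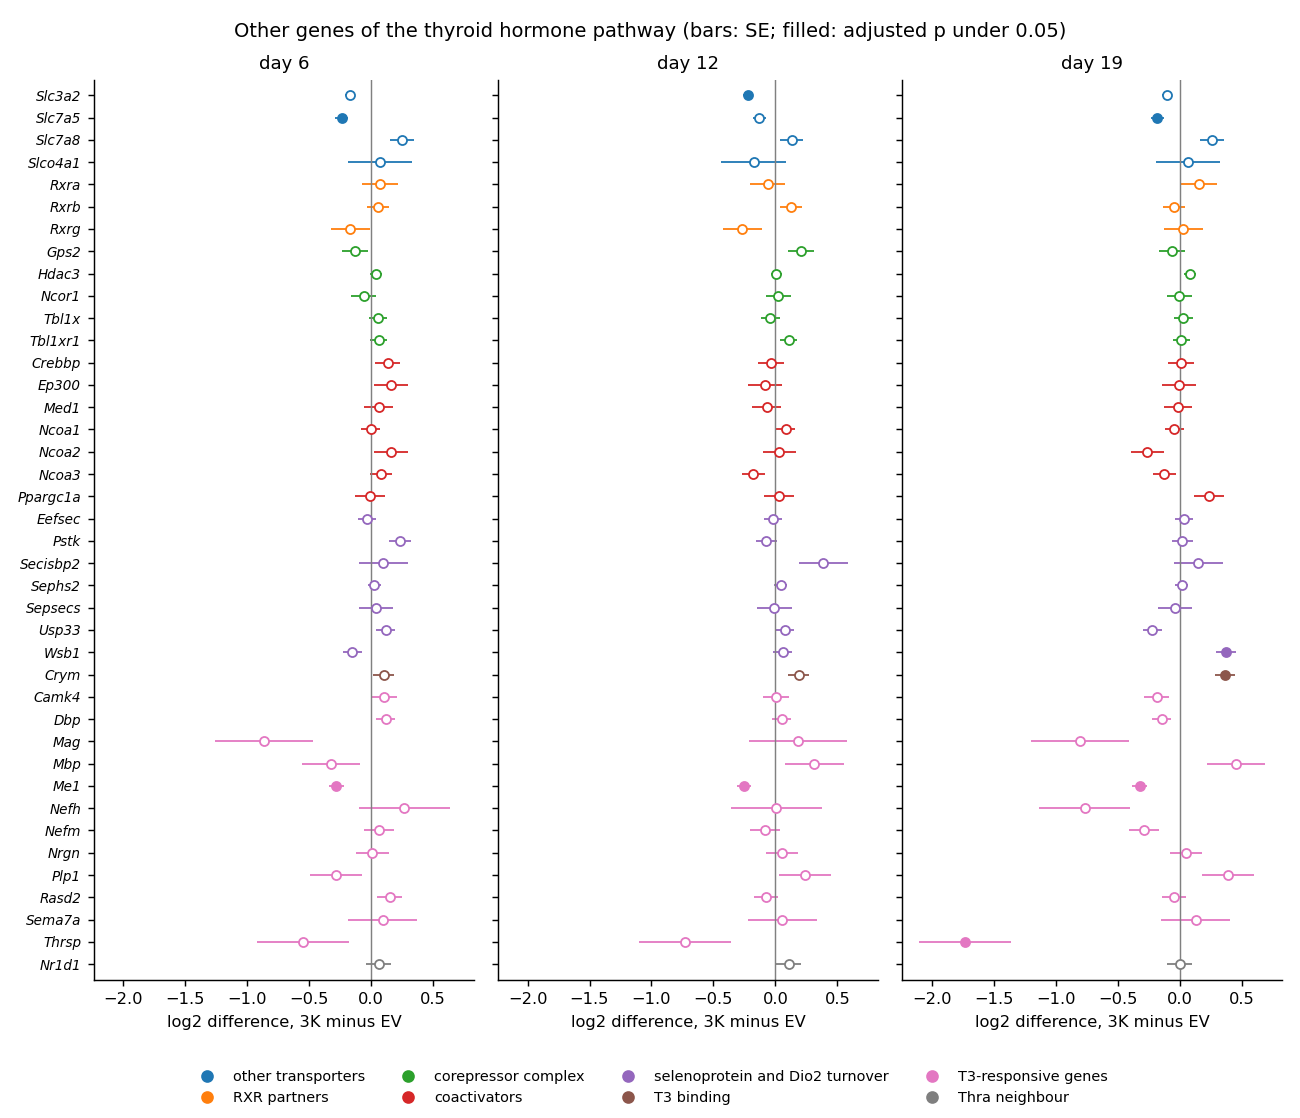
Log2 difference of αSyn 3K minus EV (x axis, SE as bars) for other tested genes of the pathway (y axis, coloured by list) at days 6, 12 and 19. Filled points have an adjusted p under the threshold, which holds for 2, 2 and 5 genes. Thrsp at day 19 (-1.73), a gene with few reads that passed the filter mainly through EV libraries, is the farthest from 0.

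Among the other transporters, Slc7a5 and Slc3a2, which form the amino acid exchanger LAT1/4F2hc that also carries thyroid hormones, were called lower in 3K at some days. Slc7a5 averaged 3507 ± 228 normalized counts in 3K and 4137 ± 162 in EV at day 6 (log2 difference -0.24, SE 0.05, adjusted p = 0.036) and 2719.9 ± 213 in 3K and 3082 ± 209.6 in EV at day 19 (-0.18, adjusted p = 0.027), and at day 12 it had -0.13 (adjusted p = 0.44) (SD, n = 5 each). Its call at day 6 was lost without any of EV replicates 1, 2, 4 and 5 or 3K replicates 1, 2, 3 and 5 (adjusted p 0.055 to 0.13). That at day 19 was lost without EV replicates 1 or 2 or 3K replicates 3 or 4 (adjusted p 0.051 to 0.11), and with libraries scaled to equal totals (-0.155, adjusted p = 0.078). Slc3a2 averaged 2748 ± 91.7 in 3K and 3209.8 ± 228 in EV at day 12 (-0.22, SE 0.04, adjusted p = 0.0031), with values of -0.17 (day 6, adjusted p = 0.071) and -0.10 (day 19, adjusted p = 0.13).

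Of 7 tested genes of selenoprotein synthesis and of DIO2 turnover, Wsb1 alone was called in 3K against EV, and only at day 19. Its product is the adaptor that marks DIO2 for degradation. At day 19 the 3K libraries had 170.2, 207, 213, 183 and 185 normalized counts, against 153, 142, 139, 147 and 155 in EV (log2 difference 0.37, SE 0.08, adjusted p = 0.002). The groups did not overlap, which held for 3.1% of all genes in this direction. At days 6 and 12 the values were -0.15 (adjusted p = 0.75) and 0.06 (adjusted p = 0.94), and the difference between treatments changed by 0.53 from day 6 to day 19 (SE 0.11, adjusted p = 0.0088), a test that 1.51% of all genes passed in either direction. In EV Wsb1 fell with age by 0.61 on the log2 scale at day 19 against day 6 (adjusted p = 4.5e-08). Usp33, from the same list, was not called, but every 3K library lay below every EV library at day 19. It averaged 187 ± 12.1 in 3K and 219 ± 14.7 in EV (SD, n = 5 each). Of all genes, 3.56% lay wholly lower in 3K at that day. Crym, which encodes a cytosolic protein that binds T3, was higher in 3K at day 19, with 365, 499, 466, 447 and 426 normalized counts, against 319.7, 356, 397, 372 and 269.7 in EV (0.37, SE 0.08, adjusted p = 0.0045). The 2 highest EV libraries lay above the lowest of 3K, and the other 4 of 3K lay above all of EV. At days 6 and 12 Crym had 0.10 (adjusted p = 0.92) and 0.19 (adjusted p = 0.53), and in EV it fell by 0.91 on the log2 scale at day 19 against day 6 (adjusted p = 4e-11).

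Of 12 tested genes known to respond to T3, a list also drawn up with earlier results known, none was called higher in 3K at any day. Those called lower were 1 (day 6), 1 (day 12) and 2 (day 19), where 0.0852%, 0.256% and 4.08% of all genes were. Me1, a cytosolic malic enzyme that makes NADPH, was the one called at every day. It averaged 739 ± 76.5 in 3K and 897 ± 64.1 in EV at day 6 (-0.28, SE 0.06, adjusted p = 0.022), 848 ± 37.6 in 3K and 1012 ± 47.9 in EV at day 12 (-0.25, adjusted p = 0.033), and 751 ± 49.2 in 3K and 939 ± 39.2 in EV at day 19 (-0.32, adjusted p = 0.00034) (SD, n = 5 each). Its call at day 6 was lost without EV replicates 1 or 5 or 3K replicates 1, 3 or 5 (adjusted p 0.068 to 0.12), and that at day 12 without EV replicates 1, 3 or 4 or 3K replicates 1, 2, 3 or 5 (adjusted p 0.051 to 0.13). Thrsp, a regulator of lipogenesis that T3 induces in liver, had 5.67, 4.28, 8.55, 2.95 and 3.11 normalized counts in 3K at day 19, against 21.6, 10.9, 15.2, 16.3 and 27.9 in EV. Thrsp passed the filter on low values mainly through EV libraries. The groups did not overlap at day 19 (-1.73, SE 0.37), which held for 3.56% of all genes in this direction. The level was low, with 24 reads over the 5 libraries of 3K and 92 over those of EV. Because the filter was passed mainly where Thrsp was high, its call at day 19 (adjusted p = 0.0024) is a description only. At day 19 against day 6 in 3K, 6 of the 12 had risen and 2 had fallen, where 32.2% of all genes rose and 31.3% fell. In EV 7 had risen and 2 had fallen, where 32.9% of all genes rose and 32.2% fell. Of the RXR partners of the receptors, 2 of 3 rose in 3K over the same span, Rxra by a log2 difference of 1.40 (adjusted p = 4.3e-10) and Rxrg by 0.98 (adjusted p = 2.5e-06), while Rxrb had 0.15 (adjusted p = 0.13). All 3 rose in EV, Rxra by a log2 difference of 1.32 (adjusted p = 1.6e-09), Rxrg by 0.78 (adjusted p = 6.7e-05) and Rxrb by 0.25 (adjusted p = 0.015), the last not without EV day 6 replicate 3 (0.14, adjusted p = 0.099). The RXR genes were named after their values were seen.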

How the data were processed

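The 30 libraries hold RNA of rat cortical neuron cultures at 3 days (6, 12, 19) after AAV9 αSyn 3K or EV, 5 per group. Per the labels and the methods of the study, cDNA was made with SMART-Seq v4 and libraries with Nextera XT. The aligner was STAR 2.5.2b and the counter RSEM 1.2.31, on Rnor_6.0 with the vector added, after FastQC checks, and DESeq2 was used for normalization. The signal values deposited by the authors are these counts divided by a size factor for each library. Multiplied by that factor (0.801 to 1.18), 100% of values came out whole within 0.01 of a read, which gave the recovered reads. Whether the factors were set over these libraries alone is not given in the sources used here.

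A limma 3.58.1 fit (R 4.3.3) to log2(normalized count + 1) had 6 groups and covered 12911 of 20634 genes with any read (normalized count of at least 10 in 5 libraries), with a trend and two-sided tests adjusted by the Benjamini-Hochberg method. Alternatives were edgeR 4.0.16 and DESeq2 1.42.0 on recovered reads, pseudocounts of 0.5 and 5, no filter, a minimum of 50, equal totals, equal upper quartiles, only the compared groups, a replicate block, and 1 library left out at a time. The fit was tested on simulated data. The 7 genes, the gene lists and the markers were chosen with earlier results of these data known. Named were the 7 genes, at most 3 genes per list past the threshold in 3K against EV, and the 3 genes most alike to each tested gene. The RXR genes and Usp33 were named besides, after their values were seen. Listed symbols with no row of that name (Dio3os, March6, Marchf6, Flywch2 and the markers Pecam1, Itgam and Col1a2) were left out. A few genes of the lists are counted but not reported here by name. Gene coordinates of Rnor_6.0 were not used here. Promoters came from RefSeq on GRCr8. Python 3.11.15, numpy 2.4.6, pandas 2.3.3 and matplotlib 3.10.9 made tables and plots.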

Additional observations from a re-analysis of the deposited data

Results flagged for a closer look

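In the groups of 5 libraries of the 15 genes looked at one by one, 2 of 90 groups held a library far from the other 4, where chance gives about 1 in 20, and none was of the 7 thyroid hormone genes. Wsb1 had 223 normalized counts in 3K day 12 replicate 4, against 166 to 178 in the other 4 libraries. Nr1d1 had 104 in EV day 6 replicate 3, against 88.9 to 92.4 in the other 4. The difference of Wsb1 between 3K and EV was larger at day 19 than at day 6, by 0.53 on the log2 scale (SE 0.11, limma, adjusted p = 0.0088), with values of 0.37 and -0.15.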

How the results depend on the processing

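The counts of the 5 tested genes called with age stayed within 1.5 times under every alternative run, edgeR and DESeq2 included. The 3K against EV count of pathway genes was 2 at day 6, 1 without a filter and 0 with only the compared groups, and 0 to 2 with 1 library left out. At day 12 it was 2, and 1 without a filter, with equal totals or with the replicate block, and 1 to 2 with 1 library left out. The gene lost under the replicate block was Me1 (adjusted p = 0.057). At day 19 it was 5 and stayed within 1.5 times under all alternatives. The cause was not tested. With only the compared groups Me1 at day 6 had an adjusted p of 0.33 and Slc7a5 0.1, and Slc7a5 at day 19 had 0.081, and 0.078 with equal totals. The value of Hr at day 19 against day 6 in 3K, which was not called (-0.19), ran from -0.429 without 3K day 19 replicate 1 to 0.012 (adjusted p = 0.97) without replicate 5. Of all genes, 29 were called at day 6 and 56 at day 12, against 14 and 106 with only the compared groups and 53 and 95 with DESeq2. With 1 library left out, the count at day 6 was 17 without EV replicate 1, 16 without 3K replicate 1 and 17 without 3K replicate 5, and at day 12 it was 37 without EV replicate 2 and 36 without 3K replicate 2, so the shares of all genes at these days rest on single libraries. With equal totals or equal upper quartiles the median of all genes lay between -0.0508 and 0.0232 on the log2 scale. The labels do not say what the replicate numbers share, and they were not taken as pairs: deviations of 75 same-numbered pairs correlated at a median of 0.01 (from -0.12 to 0.19, 4 of them over 0.1) and those of 300 others at 0.00. Of 30 libraries 11 were closest to a library of their own number, where 6 would be if the numbers said nothing, a hint from the data and not the design. Genes with few reads, Dio2, Dio3, Thrsp and Hr among them, are limited by depth.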
